A study of Rattus norvegicus with 8 samples.

Results

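The mitochondrial ribosomal proteins were examined in pancreatic islets of fetal rats. Their genes were taken by symbol, as every gene whose symbol starts with Mrpl or Mrps followed by a number and that had a probe set of its own on the array. This gave 71 of 14506 genes, 44 with a large-subunit symbol (Mrpl) and 27 with a small-subunit symbol (Mrps). No difference between groups entered this symbol rule, and brightness only decided between probe sets of the same gene. The family itself was chosen with earlier results of these data known. The annotation writes 3 of them in lower case (mrpl9, mrpl11 and mrpl24), and they were kept. A further 10 protein-coding genes with such symbols in the RefSeq annotation, among them Mrpl20, Mrpl28, Mrpl33, Mrpl39, Mrpl58 and Mrps6, were not analysed here.

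The IUGR group held 4 litters of Sprague-Dawley dams that had surgery for intrauterine growth restriction (IUGR) on embryonic day 18. The sham group held 4 litters of Sprague-Dawley dams that had a control operation on the same day. In both groups islets were isolated on embryonic day 19, and the islets of a whole litter were pooled for 1 array, so the litter was the replicate and differences between fetuses of a litter, the sexes included, were not measured. The labels name no kind of IUGR surgery and no sort of cells after islet isolation.

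Mitochondria have their own ribosome, whose RNAs are encoded in mitochondrial DNA and whose proteins are all encoded in the nucleus, made in the cytosol and imported. It makes some of the subunits of the respiratory chain and of ATP synthase. In beta cells, mitochondrial ATP links glucose metabolism to insulin release. A part of its proteins has counterparts in bacterial ribosomes and the others are specific to mitochondria. Names do not always give the place: in published structures of mammalian mitoribosomes, the products of Mrps18a and Mrps30 lie in the large subunit.

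The start sites of these genes are shown first, since some features were more frequent there than at the start sites of all measured genes. The RefSeq promoter table (rat build GRCr8; 250 bases before the start and 50 from it on) held 57 of the 71 members. It was searched on both strands for the motif letters GCGCATGC (NRF1, a regulator of nuclear genes for mitochondrial proteins), CCGGAAG (ETS family, which includes GABPA, another such regulator), AAGATGGC (YY1), TGACGTCA (CREB) and GGGCGG (SP family). The YY1 letters contain ATG, the letters of the start codon. The 5 promoters below are those of Mrps18b, which held NRF1, ETS and YY1 letters together, of Mrps10 and Mrpl52, the members with the largest difference and the smallest p between IUGR and sham litters, of Mrpl32, with 3 matches to the NRF1 letters, and of Mrpl46, whose window also holds the start of Mrps11. Capitals mark NRF1, ETS and YY1 letters on either strand, where overlapping matches run together, and SP family letters are not marked.
Mrps18b promoter, chr20:2842756-2843055, plus strand: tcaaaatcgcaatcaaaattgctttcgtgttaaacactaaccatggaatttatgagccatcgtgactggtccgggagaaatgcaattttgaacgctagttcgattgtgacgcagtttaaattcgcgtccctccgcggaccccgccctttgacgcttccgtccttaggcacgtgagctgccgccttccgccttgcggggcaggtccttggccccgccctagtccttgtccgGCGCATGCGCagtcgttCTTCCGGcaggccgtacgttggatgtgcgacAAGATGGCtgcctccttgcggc
Mrps10 promoter, chr9:21122404-21122703, minus strand: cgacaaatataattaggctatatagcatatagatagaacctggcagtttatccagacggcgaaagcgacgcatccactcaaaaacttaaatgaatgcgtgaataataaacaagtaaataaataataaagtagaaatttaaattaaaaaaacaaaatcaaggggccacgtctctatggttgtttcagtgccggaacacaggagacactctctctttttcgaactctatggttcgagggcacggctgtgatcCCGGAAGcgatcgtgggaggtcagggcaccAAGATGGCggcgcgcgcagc
Mrpl52 promoter, chr15:31852686-31852985, plus strand: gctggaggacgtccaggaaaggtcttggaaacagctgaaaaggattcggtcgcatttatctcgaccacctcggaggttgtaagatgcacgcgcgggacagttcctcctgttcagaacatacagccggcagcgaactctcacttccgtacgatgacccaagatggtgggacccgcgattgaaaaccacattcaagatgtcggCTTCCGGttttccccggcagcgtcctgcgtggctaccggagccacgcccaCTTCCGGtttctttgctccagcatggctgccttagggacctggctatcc
Mrpl32 promoter, chr17:55260401-55260700, plus strand: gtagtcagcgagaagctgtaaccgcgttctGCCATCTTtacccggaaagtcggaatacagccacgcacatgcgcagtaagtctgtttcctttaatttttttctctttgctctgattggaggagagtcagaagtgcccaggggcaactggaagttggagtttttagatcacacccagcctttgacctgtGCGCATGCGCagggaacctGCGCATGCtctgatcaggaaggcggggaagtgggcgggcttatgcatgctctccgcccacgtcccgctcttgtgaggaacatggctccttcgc
Mrpl46 promoter, chr1:142116981-142117280, minus strand: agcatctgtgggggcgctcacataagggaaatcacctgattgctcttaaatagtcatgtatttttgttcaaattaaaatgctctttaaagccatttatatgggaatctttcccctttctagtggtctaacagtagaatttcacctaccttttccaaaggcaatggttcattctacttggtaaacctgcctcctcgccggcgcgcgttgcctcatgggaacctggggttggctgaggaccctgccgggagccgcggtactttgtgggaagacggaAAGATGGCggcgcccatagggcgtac

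Positions are those of the first base of a match, with the start as 0. In the Mrps18b promoter NRF1 letters lay at -20 and, overlapping on the other strand, at -18, ETS letters at -3 and YY1 letters at 28. In Mrps10 the ETS letters lay at 0 and the YY1 letters at 30. Mrpl52 held ETS letters at -49 and 1. Mrpl32 held NRF1 letters at -62, -60 and -43, the first pair overlapping on opposite strands, and YY1 letters at -220. Mrpl17, whose promoter is not printed, also held 3 matches to the NRF1 letters, at -55, -53 and -17. Its difference between IUGR and sham litters was 0.06 ± 0.08 (SE) on the log2 scale. Mrpl46 held YY1 letters at 24.

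Over the 57 member promoters, YY1 letters were found in 14 (24.6%), against 506 of the 11949 promoters of measured protein-coding genes (4.23%). A match lay at or after the start in 11 of these 14, against 257 of the 506. ETS letters were found in 18 member promoters (31.6%), against 13.0% of all, and NRF1 letters in 5 (8.77%), against 3.85%. Both ETS and YY1 letters were held by 6 member promoters and by 119 of all. The SP letters were about as frequent in members (50.9%) as in all promoters (50.2%), and CREB letters were found in 1 member, Mrpl55 (1.75%), against 2.45% of all. The median share of G and C was 56.0% in member promoters and 58.0% in all. The letters CG, which the NRF1 and ETS letters contain, occurred a median of 19 times per member promoter, against 16 in all. None of the 5 motifs was found in 15 member promoters, against 5063 of all, while each of the 5 printed promoters holds matches. These matches describe letters in a window and do not show that a factor binds.

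Many members also face another gene. A protein-coding gene on the opposite strand started at most 1000 bases upstream of 17 of the 57 members (29.8%), against 978 of 11949 genes (8.18%). Mrpl46 and Mrps11 face each other, with 234 bases between their starts, and so pair a large-subunit with a small-subunit protein. Mrpl47 faces Ndufb5, a subunit of respiratory complex I, at 244 bases, Mrps18c faces the helicase gene Helq at 72 bases, Mrps27 faces Ptcd2 at 91 bases and Mrpl49 faces Fau, which encodes a protein of the cytosolic ribosome, at 186 bases. Of the 12 measured partners that are not themselves members, all 12 had a difference above 0 between IUGR and sham litters, against 55.1% of all genes, with a median of 0.21 on the log2 scale. Without sham replicate 4 this held for 9 of them, with a median of 0.17, against 52% of all genes. None of the 12 passed the adjusted test. With 8 litters, 70.8% of the genes left without the dimmest 30% were above 0. The partners were read on the deposited values only.

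**Figure D1:**
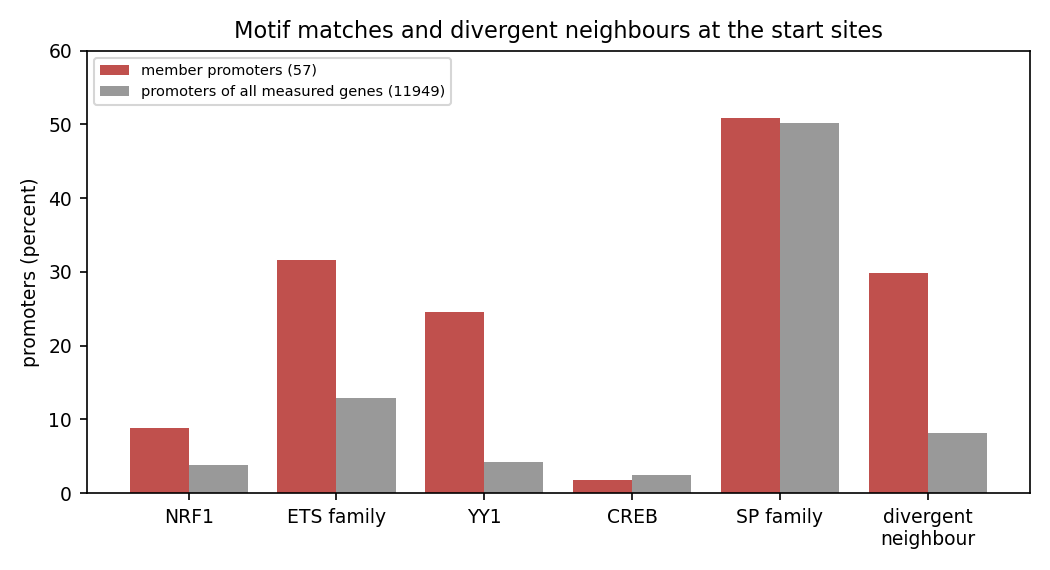
Share of promoters (vertical axis, percent) that hold the letters of each motif on either strand, or that have a divergent neighbour within 1000 bases, for 57 member promoters (left bars) and 11949 promoters of measured genes (right bars). YY1 letters (24.6% against 4.23%) and divergent neighbours (29.8% against 8.18%) stand farthest apart, and SP letters (50.9% against 50.2%) are level.

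Expression is given as log2 values, on which a difference of 1 is a doubling. Values of the 14506 genes had an interquartile range between 3.53 and 3.62 on each IUGR array, against 3.63 on that of sham replicate 1 and 3.06 to 3.23 on the other sham arrays. Their median was 8.76 to 8.85 on the IUGR arrays, against 8.81 on that of sham replicate 1 and 8.48 to 8.55 on the other sham arrays. Sham replicate 4 stood apart in its islet markers. The mean of 13 islet markers was 12.20 there, against 11.09 to 11.58 in the IUGR litters and 10.67 to 10.77 in the other sham litters. The mean of 12 acinar markers was 11.37 to 12.15 in the IUGR litters, against 9.62 in sham replicate 4 and 10.60 to 11.20 in the other sham litters. The mean of 15 liver markers was 11.67 to 12.96 in the IUGR litters, against 9.40 in sham replicate 4 and 9.90 to 11.81 in the other sham litters. All 12 acinar and all 15 liver markers had a difference above 0 between IUGR and sham litters. Of 8 duct markers 7 were above 0, with means of 10.84 to 11.08 in the IUGR litters, against 9.88 to 10.42 in the sham litters. None of the 7 erythroid, 10 macrophage, 10 mesenchyme and 10 endothelial markers was above 0. Of the 13 islet markers 9 were above 0 and 4 below, with a median of 0.10, and none passed the adjusted test. Without sham replicate 4, 10 of the 13 were above 0, with a median of 0.71. Then 3 of them passed the adjusted test, against 1.08% of all genes. In these bulk samples fewer cells of a type and less RNA per cell cannot be told apart.

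The first comparison asked whether the large and the small subunit had the same level in each litter. The mean of the 44 large-subunit genes was 10.26, 10.37, 10.21 and 10.50 in IUGR replicates 1 to 4, against 10.29, 10.23, 10.13 and 9.46 in sham replicates 1 to 4. The mean of the 27 small-subunit genes was 10.31, 10.44, 10.26 and 10.59 in IUGR replicates 1 to 4, against 10.28, 10.27, 10.21 and 9.54 in sham replicates 1 to 4. In both subunits IUGR replicate 4 was highest and sham replicate 4 lowest, sham replicates 1 to 3 lay close to IUGR replicates 1 and 3, and the groups overlapped for the large subunit and for the small subunit. The large-subunit mean was 10.34 ± 0.13 in IUGR litters and 10.03 ± 0.38 in sham litters, and the small-subunit mean was 10.40 ± 0.15 in IUGR litters and 10.08 ± 0.36 in sham litters (SD, n = 4 each).

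The subunits ran in parallel. The large-subunit mean minus the small-subunit mean was -0.04, -0.07, -0.05 and -0.09 in IUGR replicates 1 to 4, against 0.01, -0.04, -0.08 and -0.07 in sham replicates 1 to 4. Its group means were -0.06 ± 0.02 in IUGR litters and -0.05 ± 0.04 in sham litters (SD, n = 4 each), so the gap between subunits differed between groups by -0.01, less than its spread between litters. With Mrps18a and Mrps30 counted in the large subunit, where structures place them, the gap was 0.05 ± 0.03 in IUGR litters and 0.09 ± 0.05 in sham litters (SD, n = 4 each). It then differed between groups by -0.036, beyond the SD of the IUGR litters and within that of the sham litters, and this was not tested. The size of the gap itself has no meaning, since it sets probe sets of different genes against each other.

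**Figure D2:**
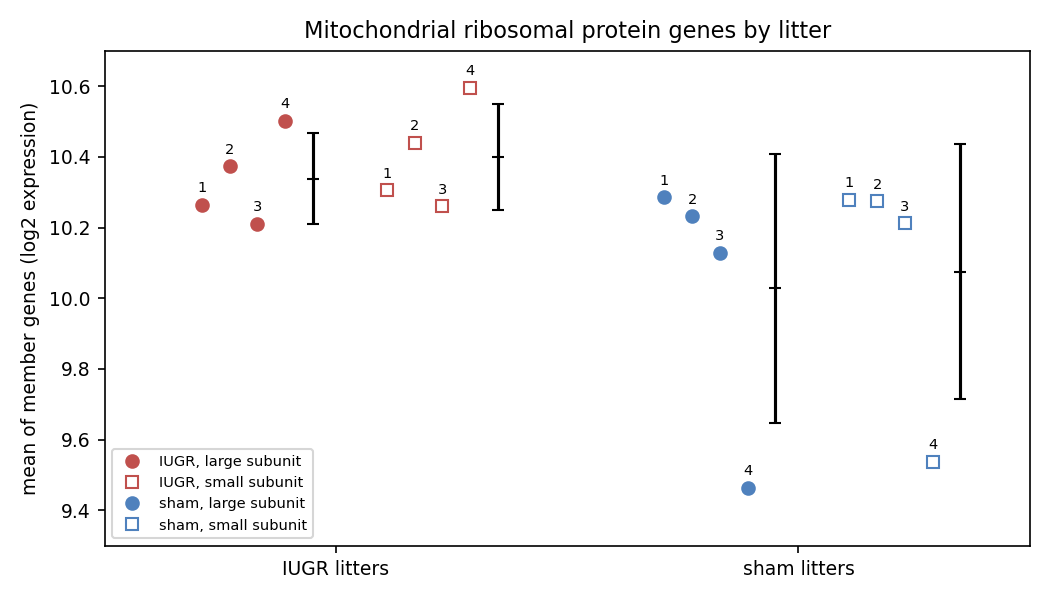
Mean log2 expression of the 44 large-subunit genes (filled circles) and the 27 small-subunit genes (open squares) in each litter, IUGR litters left and sham litters right, with replicate numbers, and the group mean with its SD (n = 4) as a bar. Sham replicate 4 (9.46 and 9.54) lies below the 7 other litters, which span 10.13 to 10.50 for the large and 10.21 to 10.59 for the small subunit.

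The low level of sham replicate 4 ran through nearly all members. It was the lowest of the 8 litters in 68 of 71 members (95.8%), against 30.8% of all genes. IUGR replicate 4 was the highest litter in 47 members (66.2%), against 20.6% of all genes. These litters also lay at the ends of marker lists. The mean of 10 mesenchyme markers was 10.36 in IUGR replicate 4 and 11.33 to 11.51 in the other IUGR litters, against 12.19 in sham replicate 4 and 11.53 to 11.69 in the other sham litters. The mean of 10 endothelial markers was 10.49 in IUGR replicate 4 and 11.06 to 11.13 in the other IUGR litters, against 11.65 in sham replicate 4 and 10.88 to 11.31 in the other sham litters. IUGR replicate 4 also had the highest acinar (12.15) and liver (12.96) means of the 8 litters, and the part of these cell types in the members' values was not tested. The gap between sham replicate 4 and the mean of sham replicates 1 to 3 had a median of -0.73 over the members and -0.03 over all genes. Its size varied among members. Mrpl47 (-1.65), Mrpl19 (-1.58) and Mrps27 (-1.55) had the widest gaps, while Mrpl2 (-0.05) and Mrps18a (-0.07) had almost none, and 17 members lay over 1 below. The range over the sham litters had a median over members of 0.83 with all 4 sham litters and 0.19 over sham replicates 1 to 3, against 0.37 over the 4 IUGR litters.

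**Figure D3:**
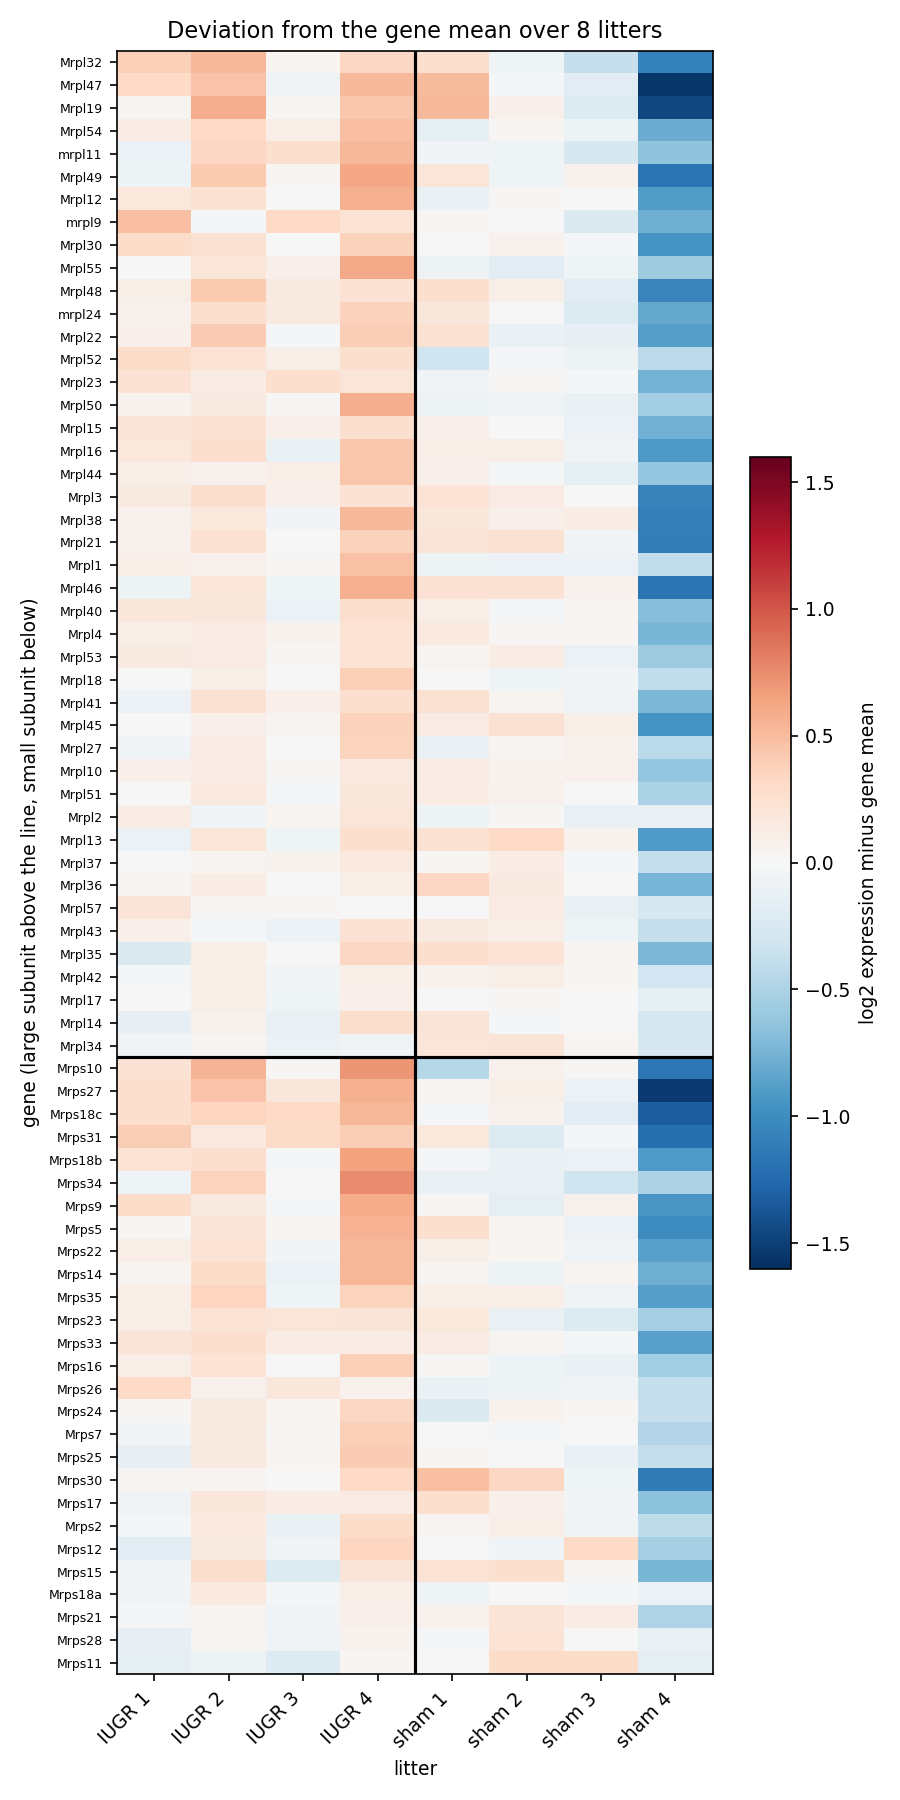
Log2 expression of each of the 71 members (rows) in each litter (columns, IUGR left and sham right) minus that gene's mean over the 8 litters; red is above and blue below the mean. The column of sham replicate 4 is blue in nearly every row of both subunits, and IUGR replicate 4 is the highest litter in 47 of 71 rows.

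The second comparison asked which members differed between IUGR and sham litters. No member passed the test over all genes (limma, Benjamini-Hochberg adjusted p under 0.05), where 0.248% of the 14506 genes did. The lowest adjusted p of a member was 0.104 (Mrpl52). At an unadjusted p under 0.05 there were 17 members (23.9%), all higher in IUGR litters, against 26.1% of all genes in either direction and 15.4% of all genes in that direction. The 4 IUGR litters lay above the 4 sham litters in 12 members (16.9%), against 10% of all genes, and below them in none, against 5.45% of all genes.

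On the deposited scale most members had a difference of the same sign. IUGR minus sham was above 0 in 68 of 71 members, against 55.1% of all genes. This count was lower on other scales, at 54 with quantile normalization (49.4% of all genes), 56 with cyclic loess (50.2%) and 47 with median centring (28.1%), and it was 61 with array weights (58.3%). On the deposited scale the median difference was 0.35 over the members and 0.04 over all genes. Leaving out the dimmest 30% of genes kept all 71 members. Of the genes that remained 70.8% were above 0, with a median difference of 0.14. The members' median was 0.34 for the large subunit, with 43 of 44 above 0, and 0.35 for the small subunit, with 25 of 27 above 0. The middle of the members was narrow, with quartiles of 0.16 and 0.44 and extremes of -0.21 (Mrps11) and 0.76 (Mrps10). Acinar and liver markers, given above, had differences in the same direction with medians of 1.06 and 1.81, and their part in these values was not tested.

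Much of the size rested on 1 litter. Without sham replicate 4 the median difference was 0.14 over the members and 0.01 over all genes. It was then 0.13 for the large and 0.14 for the small subunit, and 55 of 71 members were above 0. In 40 members the difference was then less than 50% of its value with 8 litters. No member passed the adjusted test, against 1.08% of all genes. At an unadjusted p under 0.05 (limma) there were 13 members, against 25.5% of all genes, in either direction. Among these 13, Mrps11 (-0.30) and Mrpl34 (-0.19) were lower in IUGR litters. The median over the members stayed above 0 under each between-array scaling, at 0.15 with quantile normalization, at 0.15 with cyclic loess and at 0.12 once arrays were centred on their medians, where the median of all genes was -0.19. After quantile normalization without sham replicate 4 it was 0.01, against -0.01 for all genes.

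**Figure D4:**
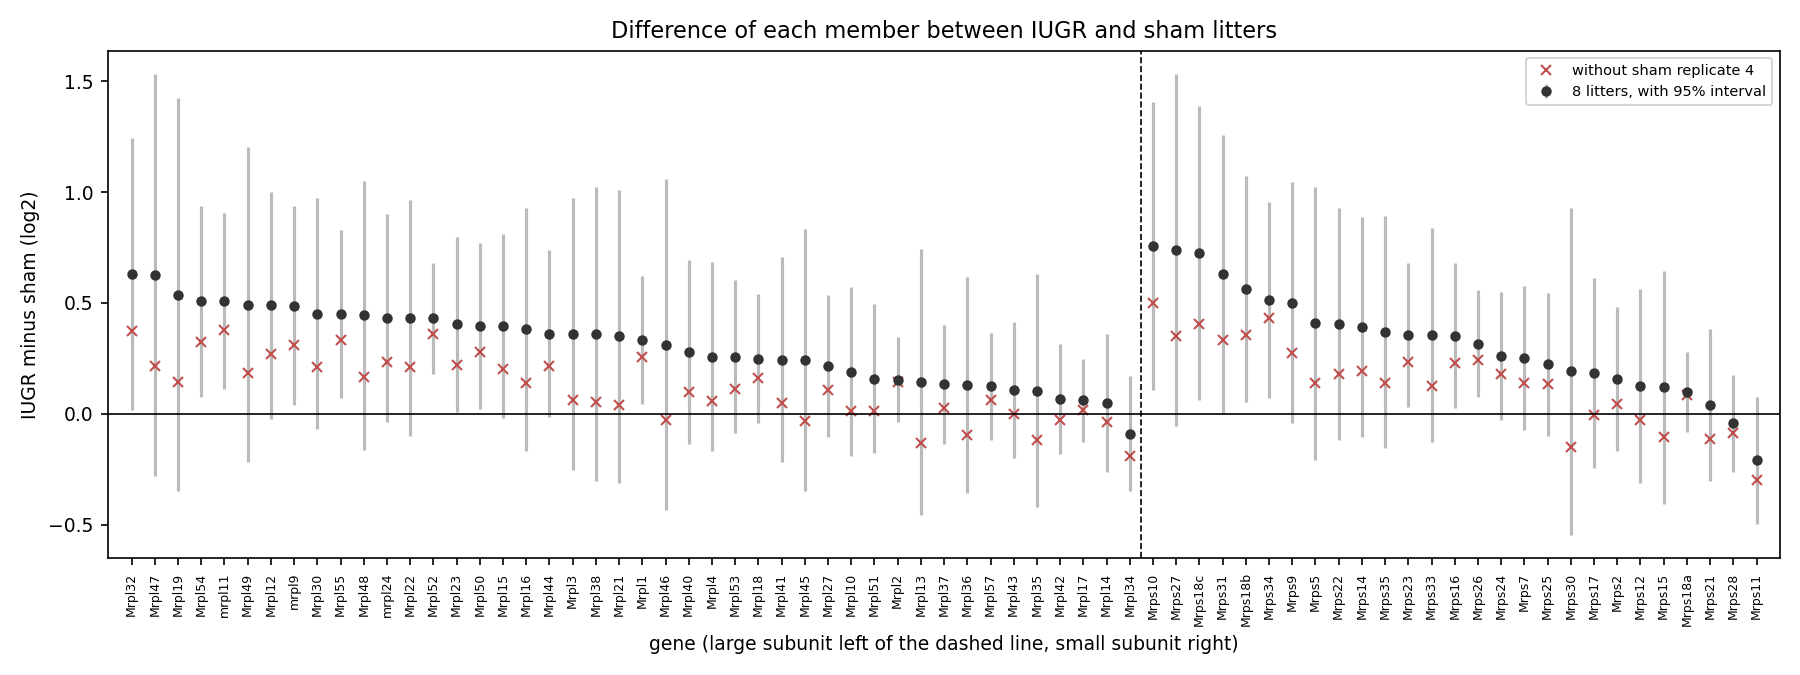
Difference between IUGR and sham litters (log2, IUGR minus sham) of each of the 71 members, large subunit left and small subunit right of the dashed line, with its unadjusted 95% interval over 8 litters (circles) and without sham replicate 4 (crosses). With 8 litters 68 circles lie above 0, from -0.21 to 0.76, and without sham replicate 4 55 crosses do.

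Large-subunit members around the site where translation factors bind are given first. mrpl11, whose bacterial counterpart helps form the centre that binds elongation factors, had 10.60, 11.02, 10.94 and 11.20 in IUGR litters, against 10.64, 10.62, 10.42 and 10.04 in sham litters. IUGR replicate 1 lay among the sham litters and the other IUGR litters above them, and the difference was 0.51 ± 0.17 (SE, n = 4 each, limma adjusted p = 0.141). Mrpl12, the stalk protein that recruits these factors, had 10.24, 10.31, 10.07 and 10.64 in IUGR litters, against 9.96, 10.09, 10.08 and 9.17 in sham litters. The groups overlapped through IUGR replicate 3, with a difference of 0.49 ± 0.22 (SE). Mrpl10, the base of that stalk, had a difference of 0.19 ± 0.17 (SE), which was 0.01 when sham replicate 4 was left out and -0.04 after median centring.

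Mrpl52, a mitochondria-specific large-subunit protein, had the smallest p of the members. It had 11.98, 11.90, 11.78 and 11.94 in IUGR litters, against 11.36, 11.65, 11.61 and 11.26 in sham litters. All IUGR litters lay above all sham litters, the gap to sham replicate 4 was small, and the difference was 0.43 ± 0.11 (SE), or 1.35-fold, and 0.36 without sham replicate 4. Mrpl54, also mitochondria-specific, had 11.40, 11.61, 11.39 and 11.77 in IUGR litters, against 11.13, 11.31, 11.21 and 10.49 in sham litters. The groups did not overlap, and the difference was 0.51 ± 0.19 (SE), and 0.33 without sham replicate 4.

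Mrpl55, another large-subunit protein, had 8.85, 9.03, 8.92 and 9.45 in IUGR litters, against 8.76, 8.65, 8.77 and 8.27 in sham litters, a difference of 0.45 ± 0.17 (SE) without overlap. Mrpl1, the protein of the stalk on the tRNA exit side, had 9.02, 8.99, 8.93 and 9.37 in IUGR litters, against 8.84, 8.82, 8.81 and 8.52 in sham litters. The groups did not overlap, and the difference was 0.33 ± 0.13 (SE). Mrpl23, which lies at the exit of the tunnel that the new chain leaves through, differed by 0.40 ± 0.17 (SE) without overlap, at 11.81 to 11.96 in IUGR litters, against 10.94 in sham replicate 4 and 11.64 to 11.71 in the other sham litters.

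Among the other large-subunit members with the smallest p-values, mrpl9 differed by 0.49, Mrpl32 by 0.63, Mrpl50 by 0.40 and Mrpl44 by 0.36, with limma adjusted p-values of 0.169 to 0.206. Mrpl32, whose precursor is cut by the m-AAA protease of mitochondria in yeast, had 9.91, 10.04, 9.56 and 9.85 in IUGR litters, against 9.79, 9.46, 9.17 and 8.45 in sham litters, and sham replicate 1 lay among the IUGR litters. Mrpl47 and Mrpl19, with differences of 0.63 ± 0.40 and 0.54 ± 0.39 (SE), had the widest range over the sham litters. In Mrpl47 the values were 9.64, 9.78, 9.27 and 9.84 in IUGR litters, against 9.82, 9.29, 9.14 and 7.77 in sham litters, so that 7 litters lay between 9.14 and 9.84 and sham replicate 4 far below them. Without that litter these 2 members differed by 0.21 and 0.14.

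In the small subunit, Mrps10 had the largest difference of all members. It had 10.05, 10.36, 9.84 and 10.52 in IUGR litters, against 9.36, 9.89, 9.83 and 8.66 in sham litters. IUGR replicate 3 lay between sham replicates 2 and 3, and the difference was 0.76 ± 0.28 (SE), or 1.69-fold, and 0.50 without sham replicate 4 (limma adjusted p = 0.152 with 8 litters and 0.182 without that litter). Mrps26, a mitochondria-specific protein, had 11.53, 11.27, 11.40 and 11.28 in IUGR litters, against 11.10, 11.14, 11.15 and 10.83 in sham litters. The groups did not overlap, and the difference was 0.32 ± 0.10 (SE), and 0.24 without sham replicate 4.

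Mrps34, also mitochondria-specific, had 8.38, 8.81, 8.45 and 9.21 in IUGR litters, against 8.35, 8.35, 8.13 and 7.96 in sham litters. IUGR replicates 1 and 3 lay just above the highest sham litters and IUGR replicate 4 well above, with a difference of 0.51 ± 0.19 (SE), and 0.43 without sham replicate 4. Mrps27, a protein with pentatricopeptide repeats, had 11.08, 11.27, 11.00 and 11.39 in IUGR litters, against 10.86, 10.92, 10.73 and 9.29 in sham litters. The groups did not overlap, but sham replicate 4 lay far below the others, and the difference was 0.74 ± 0.35 (SE), and 0.35 without that litter. Among the other small-subunit members with the smallest p-values, Mrps23 differed by 0.35, Mrps16 by 0.35, Mrps31 by 0.63 and Mrps9 by 0.50. Mrps16 encodes a protein with a bacterial counterpart, and in humans its loss of function causes a disorder of the respiratory chain.

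The genes Mrps18a, Mrps18b and Mrps18c share a name and encode related proteins. Mrps18c had 11.17, 11.24, 11.22 and 11.43 in IUGR litters, against 10.88, 10.98, 10.72 and 9.58 in sham litters. Mrps18b had 10.59, 10.65, 10.36 and 11.02 in IUGR litters, against 10.36, 10.27, 10.28 and 9.47 in sham litters. In both the IUGR litters lay above the sham litters, in Mrps18b by little, with differences of 0.73 ± 0.29 and 0.56 ± 0.22 (SE). Mrps18a, the large-subunit protein of this family, had 11.01, 11.21, 11.04 and 11.16 in IUGR litters, against 10.99, 11.05, 11.03 and 10.96 in sham litters. Its 8 litters spanned the least among these 3 genes, its groups overlapped, and its difference was 0.10 ± 0.08 (SE), turning to -0.04 after quantile normalization or cyclic loess and -0.13 after median centring. Without sham replicate 4 the 3 genes differed by 0.41, 0.35 and 0.08, and the differences between these genes were not tested.

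Not every member had a clear sign. Mrps12, the protein of the decoding centre, had 10.08, 10.40, 10.20 and 10.61 in IUGR litters, against 10.26, 10.22, 10.58 and 9.73 in sham litters, with overlap, a difference of 0.13 ± 0.19 (SE), and -0.03 without sham replicate 4. Mrps30, a large-subunit protein in spite of its name, had 11.41, 11.42, 11.36 and 11.69 in IUGR litters, against 11.85, 11.70, 11.31 and 10.25 in sham litters. Sham replicates 1 and 2 lay above all IUGR litters and sham replicate 4 below them, so its difference was 0.19 ± 0.32 (SE) with 8 litters and -0.15 without that litter. The members with the highest probe set values, Mrpl42, Mrps21 and Mrpl51, differed by 0.06, 0.04 and 0.16 and by -0.03, -0.11 and 0.01 without sham replicate 4. Their group means lay well under the highest value of each array (at least 14.03).

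Mrps11 had the lowest difference, and its 2 probe sets did not agree. This member and its probe sets, like Mrpl2, Mrpl17, Mrpl34, Mrpl46, Mrpl49 and Mrps28, were singled out after they were seen. The brighter probe set had 9.95 to 10.18 in IUGR litters, against 10.14, 10.45, 10.45 and 9.99 in sham litters. Its difference was -0.21 ± 0.12 (SE), and -0.30 without sham replicate 4. The other had 9.84, 10.33, 9.89 and 10.17 in IUGR litters, against 10.31, 10.36, 10.13 and 9.24 in sham litters, a difference of 0.05 ± 0.25 (SE), and its low value in sham replicate 4 was like that of most members. Mrpl46, which faces Mrps11 across the window printed above, had 10.89, 11.16, 10.90 and 11.54 in IUGR litters, against 11.20, 11.20, 11.04 and 9.80 in sham litters, a difference of 0.31 ± 0.32 (SE) that was -0.03 without sham replicate 4.

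Mrpl42 also had probe sets of opposite sign, with differences of 0.06 and -0.21, while those of Mrpl40 (0.28 and 0.32) and Mrpl41 (0.24 and 0.25) were alike. RefSeq lists genes named as copies of Mrpl41, Mrpl42 and Mrps21, so that signal of these members may be shared with a copy. The other members below 0 were Mrpl34, at -0.09 ± 0.11, and Mrps28, at -0.04 ± 0.10 (SE). Without sham replicate 4 they were at -0.19 and -0.09, and 16 of the 71 members were then below 0. The 41 members outside the rule for named genes had differences from -0.21 to 0.49.

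By origin of the proteins, the 42 members with a bacterial homologue had a median difference of 0.34, with 39 above 0, and the 29 mitochondria-specific members one of 0.35, with all 29 above 0. In the small subunit as structures define it, the 10 mitochondria-specific members had a median of 0.39 and the 15 with a bacterial homologue one of 0.25. In the large subunit the order was turned, with 0.26 for 19 mitochondria-specific members and 0.36 for 27 with a bacterial homologue. These medians were not tested against each other.

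The structural proteins that carry other names went the same way. Dap3, a GTP-binding small-subunit protein first described in cell death, differed by 0.42 ± 0.20, Ptcd3, a pentatricopeptide repeat protein, by 0.58 ± 0.29, Aurkaip1 by 0.39 ± 0.13 and Chchd1 by 0.16 ± 0.19 (SE, n = 4 each). Gadd45gip1, the large-subunit protein also known as CRIF1, differed by 0.29 ± 0.16 (SE). All 5 were above 0, none passed the adjusted test, and sham replicate 4 was the lowest litter in all 5. In Aurkaip1 the groups did not overlap, with 11.55, 11.42, 11.56 and 11.69 in IUGR litters, against 11.21, 11.29, 11.36 and 10.82 in sham litters. Without sham replicate 4 the differences were 0.21 for Dap3, 0.27 for Ptcd3, 0.27 for Aurkaip1, 0.14 for Gadd45gip1 and -0.03 for Chchd1.

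The machinery that works with the mitoribosome was read from lists, of which only nuclear genes were measured. Of 17 measured translation factors and related proteins, 16 were above 0, with a median of 0.46, and none passed. Trmu, which modifies mitochondrial tRNAs, had 7.51, 7.51, 7.50 and 7.65 in IUGR litters, against 7.21, 7.17, 7.22 and 7.18 in sham litters. Sham replicate 4 lay among the other sham litters there, the groups did not overlap, and the difference was 0.35 ± 0.07 (SE, limma adjusted p = 0.079). Metap1d, a mitochondrial methionine aminopeptidase, differed by 0.43 and the repeat protein gene Ptcd1 by 0.49. The list of mitochondrial tRNA charging had 15 measured genes, 13 synthetases and the amidotransferase subunits Qrsl1 and Gatc. Among the synthetases Gars1 and Kars1 also serve the cytosol. All 15 were above 0, with a median of 0.39 and none past the threshold, and the 13 synthetases had a median of 0.42. Vars2 (0.36), Aars2 (0.38) and Tars2 (0.48), the enzymes that charge valine, alanine and threonine tRNAs, led this list by p, and they differed without sham replicate 4 by 0.36, 0.39 and 0.41.

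Of 26 measured assembly factors of the mitoribosome 24 were above 0, with a median of 0.37 and none past the threshold. The GTPase genes Noa1 and Mtg1 differed by 0.64 and 0.45 and the protease gene Spg7, part of the m-AAA protease, by 0.40. Of 17 genes of mitochondrial transcription and DNA maintenance 16 were above 0, with a median of 0.38 and none past the threshold. The helicase gene Twnk differed by 0.67, Top1mt by 0.46, and Ppargc1a, a coactivator of genes for mitochondrial proteins, by 1.43 ± 0.37 (SE, limma adjusted p = 0.108). Ppargc1a had 7.41, 7.26, 7.70 and 9.09 in IUGR litters, against 6.55, 6.28, 6.50 and 6.41 in sham litters, without overlap and with IUGR replicate 4 well above the other IUGR litters.

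Of 66 nuclear-encoded respiratory chain subunits 62 were above 0, with a median of 0.20. In this list 1 gene passed the test over all genes, which 0.248% of all genes did: Uqcrfs1, the Rieske iron-sulfur subunit of complex III, rose in IUGR litters by 1.30 ± 0.18 (SE, limma adjusted p = 0.048). With quantile normalization, cyclic loess or a replicate block no gene passed, Uqcrfs1 included. The same held without sham replicate 2, without sham replicate 3, without IUGR replicate 1 and without IUGR replicate 3. Ndufa6 differed by 0.61 and Uqcr11 by 0.52. Without sham replicate 4 the medians were 0.32 for translation factors, 0.27 for tRNA charging, 0.22 for assembly factors, 0.34 for transcription and DNA maintenance and 0.08 for respiratory chain subunits, beside 0.14 for the mitochondrial ribosomal proteins. The median gap of sham replicate 4 below the other sham litters was -0.56, -0.55, -0.53, -0.23 and -0.45 in these lists in the same order, beside -0.73 in the mitochondrial ribosomal proteins. Sham replicate 4 was the lowest of the 8 litters in 82.4%, 73.3%, 84.6%, 52.9% and 86.4% of their genes. IUGR replicate 4 was the highest in 64.7%, 80%, 65.4%, 52.9% and 53.0%. In the mitochondrial ribosomal proteins these shares were 95.8% and 66.2%. These lists were compared as values only.

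**Figure D5:**
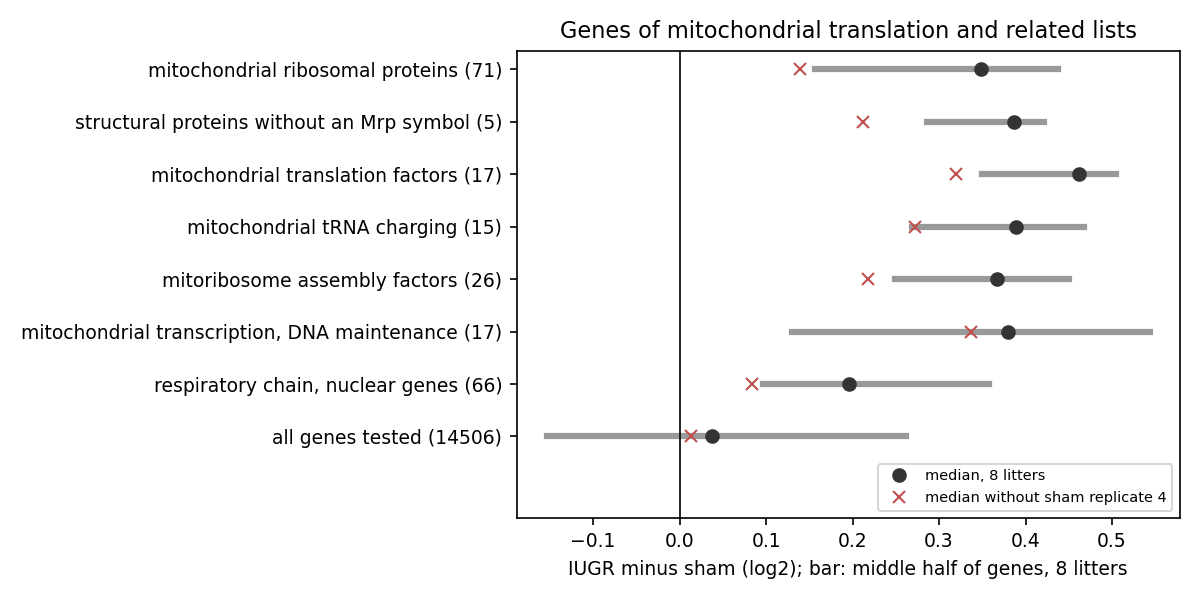
Median difference between IUGR and sham litters (log2, IUGR minus sham) of the 71 mitochondrial ribosomal protein genes, of lists of mitochondrial translation and related functions (number of genes in brackets) and of all 14506 genes, over 8 litters (circles, with the interquartile range of genes as a bar) and without sham replicate 4 (crosses). Without that litter the mitochondrial ribosomal protein median is 0.14, and that of transcription and DNA maintenance, 0.34, moves least of the mitochondrial lists.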

How the data were processed

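The authors deposited log2 expression values of 8 arrays, and the submitters' processing notes name RMA, a method of background correction, normalization and probe summary. No source used here gives its version or a probe filter. The platform annotation, which can be old, was matched to current RefSeq gene identifiers (GRCr8) for 15279 probe sets. It named 1 gene for 15310 of 29214 probe sets, several for 323 and none for 13581. The brightest probe set stood for a gene with several (4 members), leaving 14506 genes. Arrays have no read depth; their number limits the precision.

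A linear model with 1 mean per group was fitted to all genes (limma 3.58.1, R 4.3.3, moderated by eBayes), with two-sided p-values adjusted by the method of Benjamini and Hochberg over all genes and called under 0.05. The moderated model, with 8.21 degrees of freedom, gave the standard errors. Medians, counts and litter means over members carry no test. The members and lists were chosen with earlier results of these data known. The text names the 10 members of each subunit with the smallest p, the 3 with the highest and the 3 with the lowest mean, the 3 with the widest range over sham litters, fixed genes of known role, and the 3 genes of smallest p in each list. The lowest means were those of Mrpl50, Mrpl44 and Mrps9. The fit was tested on simulated data. Promoter letters are those of RefSeq. Alternatives were other scalings, a filter on dim genes, other variance models, a replicate block, other probe set rules, other subunit assignments and leaving out each litter. Respiratory chain genes of mitochondrial DNA were not analysed here. Figures were drawn with matplotlib 3.10.9.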

Additional observations from a re-analysis of the deposited data

Results flagged for a closer look

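In 66 groups of 4 litters (30 named members, both subunit means and their gap, in IUGR and in sham litters), 13 held a litter whose gap to the nearest other litter, as a share of the group's range, passed Dixon's critical value for 4 samples. Chance gives such a gap in about 1 in 20 groups, and the members share their litters. In 9 of these groups it was the low value of sham replicate 4: 8.52 in Mrpl1, 7.53 in Mrpl50, 10.94 in Mrpl23, 10.83 in Mrps26, 9.47 in Mrps18b, 9.29 in Mrps27, 12.48 in Mrpl42, 9.17 in Mrpl12 and 10.83 in Mrpl10. The small-subunit mean of sham replicate 4, 9.54, met the same rule, and the large-subunit mean did not. The 3 others were IUGR litters: a high IUGR replicate 4 in Mrpl44 (8.76) and Mrps30 (11.69), and a low IUGR replicate 1 in Mrps23 (9.69).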

How the results depend on the processing

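No member passed the threshold in any fit other than 2: with array weights 19 of 71 members passed, where 43.8% of all genes did, and without sham replicate 1 only Mrps23 passed (difference 0.47), where 18.9% of all genes did. Without 1 litter the member count thus lay between 0 and 1 (limma; 2 to 21 members at an unadjusted p under 0.05). Over all genes the count of 36 became 0 with quantile-normalized arrays (3305 at an unadjusted p under 0.05), with cyclic loess (3290) and with a replicate block (2715), 1 after median centring, 59 without the dimmest 30% of genes, 6358 with array weights, and 0 to 2738 without 1 litter. Same-numbered litters did not deviate together (correlations of -0.43, 0.10, -0.12 and -0.13 over genes), so the replicate block pairs litters by number only; it changed no call of a member. The median difference of large minus that of small subunit lay between -0.046 and 0.053 without 1 litter. After quantile normalization without sham replicate 4, chosen after seeing the data, the medians were 0.0053 for all members, -0.012 for the large and 0.029 for the small subunit. Of 510 recomputed differences of the 30 named members 22 changed sign, in 7 members. These were, after quantile normalization, Mrpl42 (-0.019), Mrps21 (-0.037), Mrps12 (-0.067) and Mrps18a (-0.044); after cyclic loess, Mrps21 (-0.0049), Mrps12 (-0.060) and Mrps18a (-0.043); after median centring, Mrpl42 (-0.17), Mrps21 (-0.19), Mrpl51 (-0.074), Mrpl10 (-0.041), Mrps12 (-0.11), Mrps18a (-0.13) and Mrps30 (-0.039); with array weights, Mrpl42 (-0.010), Mrps21 (-0.11) and Mrps12 (-0.23); and with the mean of probe sets, Mrpl42 (-0.073). Without 1 litter Mrpl42 lay between -0.029 and 0.10, Mrps21 between -0.11 and 0.11, Mrps12 between -0.030 and 0.25 and Mrps30 between -0.15 and 0.38. The cause was not tested. Leaving out Mrps36 could not be run, as it was not among the measured genes. Where a replicate was left out of its group, 3 litters stood against 4.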
